A study of Mus musculus with 2 samples.

Results

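The amino acid and peptide transporters examined here are the genes of 8 solute carrier families (Slc1, Slc3, Slc6, Slc7, Slc15, Slc36, Slc38 and Slc43), chosen by the form of their symbol alone. The rule found 65 of the 25810 genes listed with a symbol and left out symbols that end in a letter, such as *Slc6a20a* and *Slc6a20b*. RNA was measured in 2 libraries of mammary epithelial cells (MECs) from inguinal glands at lactation day 3, 1 from wild type (WT) mice and 1 from *Igfbp7*-/- mice, in which the first coding exon of *Igfbp7* is deleted in the whole animal. Neither group received a treatment, and the age of the mice and the number of mice behind each library were not given in the sources used here. The sample labels give the background as C57BL/6 and the methods give CD1 for the knockout line. Lineage-positive cells had been depleted with magnetic beads, by CD45 (leukocytes), Ter119 (erythroid cells) and another marker. The methods give that marker as CD31 (endothelial cells) and the sample labels as CD35, so the depletion of endothelial cells rests on the methods alone. The methods also report a flow cytometry check for CD45, CD31 and Ter119, in which few cells expressed lineage markers after the separation. With 1 library per genotype there was no replicate check, so every difference is given without a test or a p-value.

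A lactating gland takes up amino acids from the blood to make milk protein, and the carriers that bring them in belong to a small number of families with distinct ways of working. Slc7 light chains pair with an Slc3 heavy chain and exchange amino acids across the membrane, whereas the Slc7 cationic carriers work alone and import arginine and lysine. Slc1, Slc6 and Slc38 carriers use the sodium gradient to concentrate acidic or neutral amino acids, and Slc15 and Slc36 carriers use protons to move small peptides or small amino acids. Several Slc6 members carry neurotransmitters, taurine or creatine instead, and many of the families have members that are restricted to brain, kidney or gut.

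The knocked-out gene matched the labels, with 5224 *Igfbp7* reads in WT and 37 in *Igfbp7*-/-. The WT library held 34327854 mapped reads and the *Igfbp7*-/- library 35016847, and 82.3% and 72.3% of them lay on genes with a symbol. Levels are given as reads per 1000000 mapped reads (RPM) or, for comparisons between genes, as RPM per kilobase of transcript (RPKM), both deposited by the authors. A single read thus equalled 0.0291 RPM in the WT library and 0.0286 RPM in the other. Ratios are *Igfbp7*-/- over WT after 0.1 RPM was added to both values, which understates the difference for weakly expressed genes. A gene was counted as higher or lower when it had at least 1 RPM in either library and the ratio reached 1.5 times in that direction. Intervals are 95% Clopper-Pearson intervals on read pairs, leave out the added 0.1 RPM and cover counting error only. Markers of the secretory luminal epithelium were abundant in both libraries, with a summed level of 111695 RPM over 10 genes in WT and 44326 RPM in *Igfbp7*-/-. Of these 10, the 5 milk protein genes were lower, the luminal keratin genes *Krt8* and *Krt18* were higher, and *Epcam*, *Elf5* and *Btn1a1* stayed within 1.5 times. Among markers of other cells, 6 of 7 basal and myoepithelial genes, 5 of 6 endothelial genes, 7 of 9 leukocyte genes, 3 of 6 fibroblast genes and 4 of 5 adipocyte genes with at least 1 RPM were lower in *Igfbp7*-/-, and 1, the adipocyte gene *Lep*, was higher. None of the 3 erythroid genes with at least 1 RPM passed 1.5 times. In bulk RNA fewer cells of a type and less RNA per cell cannot be told apart.

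The plot of levels shows the 41 members that reached 1 RPM in one of the libraries. In WT 40 members and in *Igfbp7*-/- also 40 members had at least 1 RPM. The remaining 24 members stayed below it in both, at up to 0.857 RPM, and 7 of these had no read in either library. The members together took 2658 RPM in WT and 2355 RPM in *Igfbp7*-/-, that is 0.266% and 0.235% of the mapped reads. The log2 ratio of the sums was -0.17 (interval -0.19 to -0.16), but it turned to 0.013 with counts scaled to listed genes and 0.036 with counts scaled to protein-coding genes, so no direction is given for the sum. The sum was uneven in both libraries, since 3 members held 42.8% of it in WT (*Slc38a2*, *Slc7a1* and *Slc7a2*) and 3 held 49.9% in *Igfbp7*-/- (*Slc38a2*, *Slc3a2* and *Slc7a1*).

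**Figure D1:**
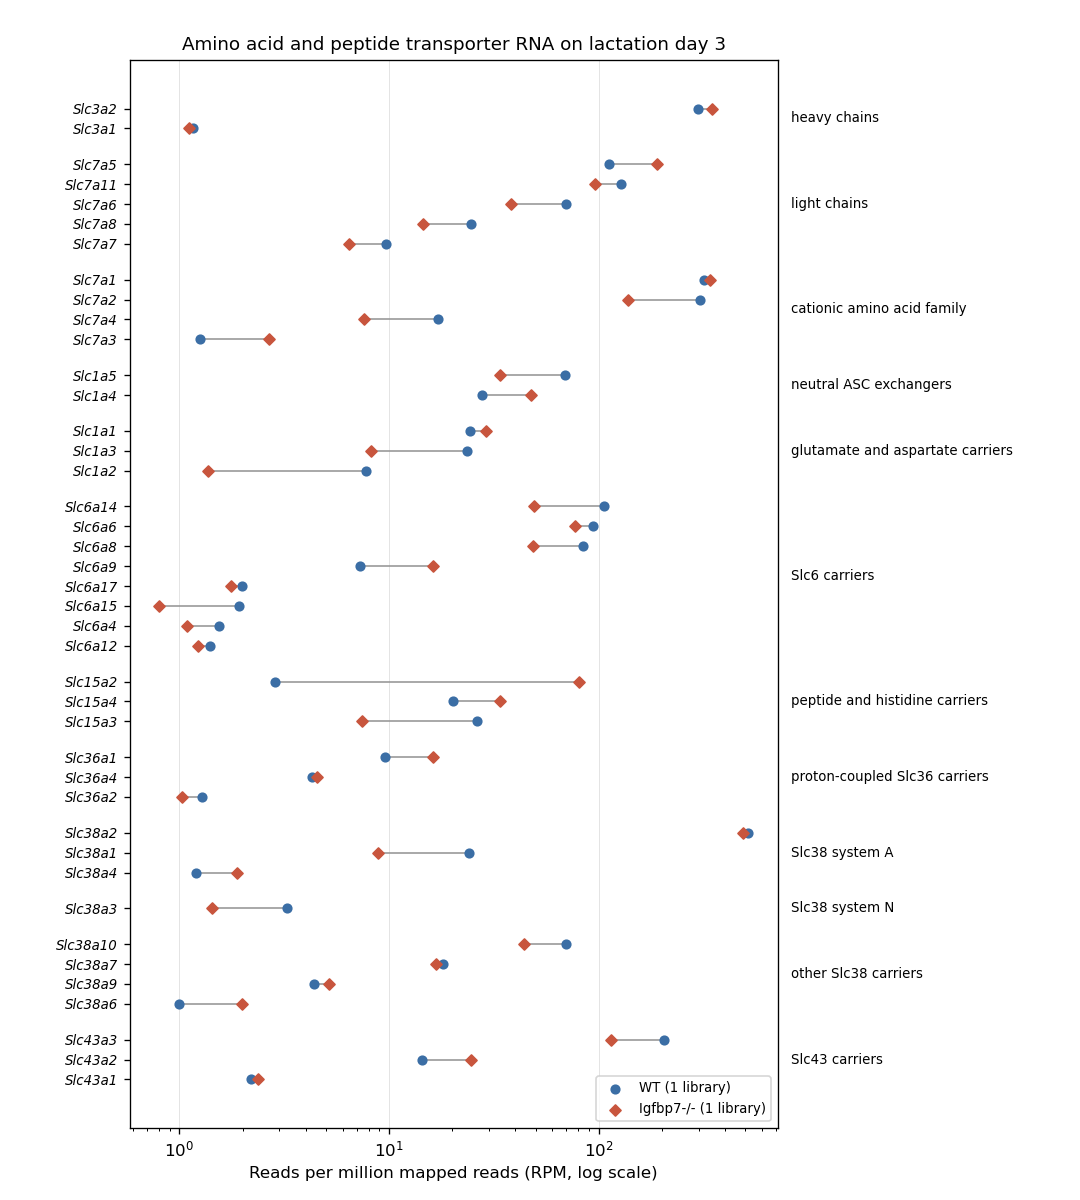
Level of the 41 transporter genes with at least 1 RPM in one of the libraries, in RPM on a log axis, ordered by role; circles are the WT library, diamonds the Igfbp7-/- library and the line joins the pair. The longest line is that of Slc15a2, from 2.85 to 80.2 RPM, while the gene with the highest RPM in both libraries, Slc38a2, sits at 516 and 490.3 RPM.

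Of the 41 members, 10 (24.4%) were higher in *Igfbp7*-/- and 16 (39.0%) were lower, against 21.4% higher and 23.0% lower among all 14026 genes with at least 1 RPM. The share of higher members on the deposited RPM was thus near the background and the share of lower members above it. The median log2 ratio of the members was -0.17 and that of all genes 0.035. When counts were scaled to the reads on listed genes in place of all mapped reads, the median of all genes moved to 0.22 and the share of calls that were higher moved from 48.2% to 62.2%. Relative to all genes, the median of the members was -0.21 on the deposited RPM and -0.22 with that scaling, and 10 members (24.4%) were then higher and 13 (31.7%) lower, against 30.3% and 18.4% of all genes. With that scaling the share of higher members was thus below that of all genes. Of the 26 members that reached 10 RPM, 7 (26.9%) were higher and 12 (46.2%) lower, against 20.7% and 20.4% of the 8201 genes at that level. The intervals left out a ratio of 1 for all 16 lower members and for 9 of the 10 higher ones. The exception was *Slc38a4*, a system A carrier with 41 reads in WT and 66 in *Igfbp7*-/-.

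**Figure D2:**
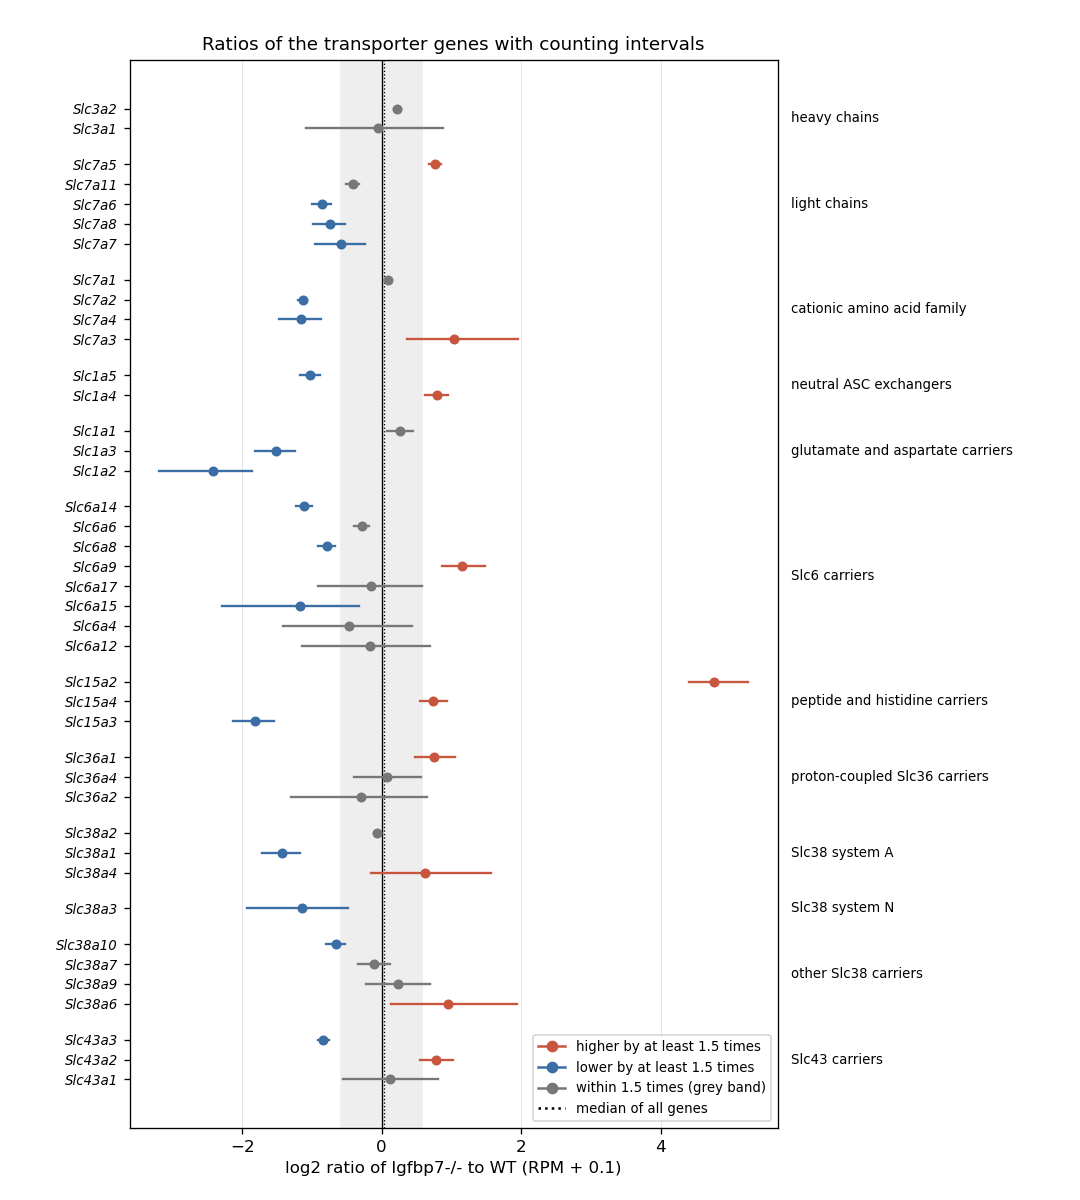
Log2 ratio of Igfbp7-/- to WT for the same 41 genes, computed from RPM plus 0.1, with 95% counting intervals as bars; the grey band marks ratios within 1.5 times and the dotted line the median of all genes. Points fall on both sides of the band in 8 role groups, and Slc15a2 at 4.76 lies far to the right of the others.

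**Figure D3:**
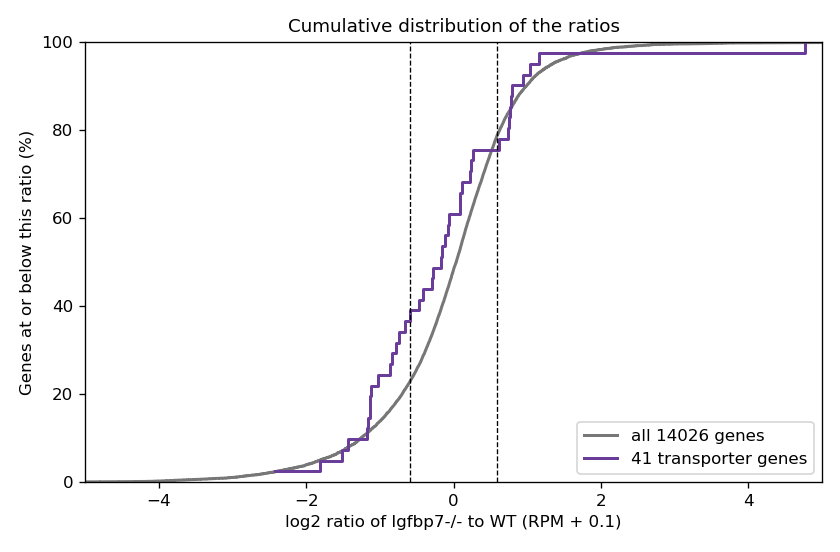
Cumulative share of genes (%) at or below each log2 ratio, for the 41 transporter genes and all 14026 genes with at least 1 RPM; dashed lines mark 1.5 times in either direction, and the axis ends at -5 and 5. At the left dashed line the transporter curve stands at 39.0% and the curve of all genes at 23.0%.

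The peptide carriers held the largest difference. *Slc15a2*, which encodes the proton-coupled carrier PEPT2 for di- and tripeptides, was low in WT, at 98 reads or 2.85 RPM, and abundant in *Igfbp7*-/-, at 2807 reads or 80.2 RPM. The log2 ratio was 4.76 (interval 4.40 to 5.25), and 6 of all 14026 genes had a higher one. Of the 8201 genes that reached 10 RPM, 3 did. Per length it was the 30th of the 65 members in WT, at 0.712 RPKM, and the sixth in *Igfbp7*-/-, at 20.01 RPKM. *Slc15a4*, a carrier of histidine and peptides found on lysosomes and endosomes, had 20.2 RPM in WT and 33.9 RPM in *Igfbp7*-/- (log2 ratio 0.74, interval 0.55 to 0.94). *Slc15a3*, a related lysosomal carrier that is prominent in macrophages, went the other way, with 26.3 RPM in WT and 7.40 RPM in *Igfbp7*-/- (-1.82, -2.13 to -1.55). *Slc15a2* therefore made up 3.66% of the summed Slc15 RPKM in WT and 55.7% in *Igfbp7*-/-. *Slc15a1*, the intestinal peptide carrier PEPT1, had 4 and 30 reads and stayed below 1 RPM. The macrophage markers *Cd68* (43.8 RPM in WT, 17.6 RPM in *Igfbp7*-/-), *Emr1* (8.42 and 2.91 RPM) and *Csf1r* (17.0 and 9.40 RPM) were lower along with *Slc15a3*, while the summed leukocyte list stood at 602 and 735 RPM with *Cd14* the largest part of it (469.9 and 677 RPM). *Itgam*, a myeloid marker of the same list, had 4.78 and 6.28 RPM (0.39, -0.03 to 0.83). No gene of the list was at 0. Their part in the lower *Slc15a3* was not tested. Exons of *Slc15a3* overlap those of *Tmem132a* on the opposite strand, which was itself lower, with 861 and 487 reads against 903 and 259 for *Slc15a3*. The use of strand in counting was not stated, and if counting left it out the reads of the pair cannot be told apart.

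In the NCBIM37 build, which corresponds to the mm9 build named in the sample labels, the *Slc15a2* gene spans 36750264 to 36785048 of chromosome 16 (minus strand), and its exons overlapped no other protein-coding gene. The sequence just before its start, shown because this gene carries the largest ratio, was taken from RefSeq for GRCm38.p6 (chr16:36784963-36785212, minus strand, 5′ to 3′). These 250 bases held 45.2% G and C and 4 CG pairs, against medians of 52.4% and 6 over 32851 windows of the same length before RefSeq gene starts. Windows were found for 46 of the 65 members. No part is in capitals, since the window held no match on either strand to the letters TGATGNAA (the core of the amino acid response element), TTCNNNGAA (a STAT site) or CACGTG (an E-box), which were present in 3.45%, 7.02% and 6.02% of all windows.
Slc15a2: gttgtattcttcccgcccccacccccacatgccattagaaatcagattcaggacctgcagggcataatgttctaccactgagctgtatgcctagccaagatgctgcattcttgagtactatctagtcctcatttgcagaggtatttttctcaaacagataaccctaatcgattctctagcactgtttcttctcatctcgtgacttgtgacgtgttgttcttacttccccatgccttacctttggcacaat

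Among the heteromeric carriers, the heavy chain was nearly level while its light chains moved in both directions. *Slc3a2*, the heavy chain 4F2hc that brings light chains to the cell surface, had 296 RPM in WT and 346 RPM in *Igfbp7*-/- (log2 ratio 0.23, interval 0.17 to 0.28). *Slc7a5*, which encodes the light chain LAT1 for large neutral amino acids such as leucine, had 112 RPM in WT and 190.3 RPM in *Igfbp7*-/- (0.76, 0.68 to 0.85). *Slc7a6*, the light chain y+LAT2 that exchanges cationic for neutral amino acids, was lower, with 69.5 and 38.2 RPM (-0.86, -1.002 to -0.73). *Slc7a8*, which encodes LAT2, was also lower, with 24.5 and 14.6 RPM (-0.75, -0.98 to -0.52). The same held for *Slc7a7*, the y+LAT1 chain that is found in gut, kidney and macrophages, with 9.70 and 6.43 RPM (-0.59, -0.96 to -0.24). Its exons overlap those of the more abundant *Oxa1l* on the opposite strand, with 929 and 815 reads. The 333 and 225 reads of *Slc7a7* are thus uncertain, since the use of strand in counting was not stated. *Slc7a7* and *Slc7a8* were no longer past 1.5 times when counts were scaled to listed genes. *Slc7a11*, the cystine and glutamate exchanger xCT, stayed within 1.5 times, with 127.7 and 95.7 RPM (-0.42, -0.51 to -0.32).

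Per length, the 6 light chains known to pair with *Slc3a2* summed to 74.9 RPKM in WT and 81.6 RPKM in *Igfbp7*-/-, or 0.712 and 0.663 of the heavy chain's own RPKM. The sum was thus similar and its makeup was not. *Slc7a5* made up 42.6% of it in WT and 66.4% in *Igfbp7*-/-, and the ratio of *Slc7a5* to *Slc3a2* was 0.303 and 0.440. *Slc3a1*, the kidney and gut heavy chain rBAT, had 40 and 39 reads, and its partners *Slc7a9* and *Slc7a13* had no read in either library. *Slc7a10*, which is expressed in brain and adipocytes, had 17 and 26 reads, and *Slc7a12* had none. On the opposite strand, exons of *Prepl* (175 and 309 reads) overlap those of *Slc3a1*, and exons of *Lrp3* (200 and 335 reads) those of *Slc7a10*. The reads of *Slc3a1* and *Slc7a10* are thus uncertain too.

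The promoter of *Slc7a11* is shown because xCT is a well known target of the amino acid response and its window held that element in both directions. Matches to TGATGNAA or its reverse complement were found in the windows of 2 of the 28 members with a window and at least 1 RPM, *Slc7a11* and *Slc7a7*. Both runs are from RefSeq for GRCm38.p6 on the minus strand, overlap by 11 bases, and have the match in capitals. Of the same 28 members, 4 held a match to TTCNNNGAA, namely *Slc1a3*, *Slc38a9*, *Slc7a1* and *Slc7a11* itself. For CACGTG there were 3, *Slc36a1*, *Slc38a7* and *Slc43a1*. These matches and those of *Slc7a7* are not shown. A match is a description of these letters only. Over all windows the shares with a match to TGATGNAA, TTCNNNGAA and CACGTG were 3.45%, 7.02% and 6.02%. Those shares count windows and the counts above count genes, which can have several windows, so they are not set against each other.
Slc7a11 at chr3:50443661-50443690: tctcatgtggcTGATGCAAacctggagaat
Slc7a11 at chr3:50443642-50443671: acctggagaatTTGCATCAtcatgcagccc

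Of the 4 members of the cationic family with at least 1 RPM, 1 was higher, 2 were lower and 1 stayed within 1.5 times. The shares among all genes were 21.4% higher and 23.0% lower. *Slc7a1*, the widely expressed carrier CAT1, had 319 RPM in WT and 339 RPM in *Igfbp7*-/- (log2 ratio 0.09, interval 0.03 to 0.14). *Slc7a2*, which encodes CAT2, had 303 RPM and 138 RPM (-1.13, -1.21 to -1.07). The RPKM of *Slc7a1* was 1.13 times that of *Slc7a2* in WT and 2.64 times in *Igfbp7*-/-. *Slc7a4*, a family member with no settled substrate, was lower, with 17.1 and 7.60 RPM (-1.16, -1.47 to -0.87). Its exons overlap those of *P2rx6* on the opposite strand, which had 20 and 7 reads. *Slc7a3*, which encodes CAT3, was higher at a low level, with 43 and 94 reads (1.04, 0.36 to 1.95). *Slc7a14* had no read in either library. *Slc7a2* lies on chromosome 8 (41947750 to 42007662, plus strand) and *Slc7a1* on chromosome 5 (149138986 to 149211480, minus strand) of NCBIM37.

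The exchangers of small neutral amino acids moved in opposite directions. *Slc1a5*, which encodes the glutamine carrier ASCT2, had 68.8 RPM in WT and 33.7 RPM in *Igfbp7*-/- (log2 ratio -1.03, interval -1.18 to -0.89). *Slc1a4*, which encodes ASCT1 for alanine, serine and cysteine, had 27.6 and 47.8 RPM (0.79, 0.63 to 0.96). Per length, *Slc1a5* stood 3.55 times above *Slc1a4* in WT and level with it in *Igfbp7*-/-, at 12.2 RPKM each. Together they summed to 32.0 RPKM in WT and 24.4 RPKM in *Igfbp7*-/-.

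**Figure D4:**
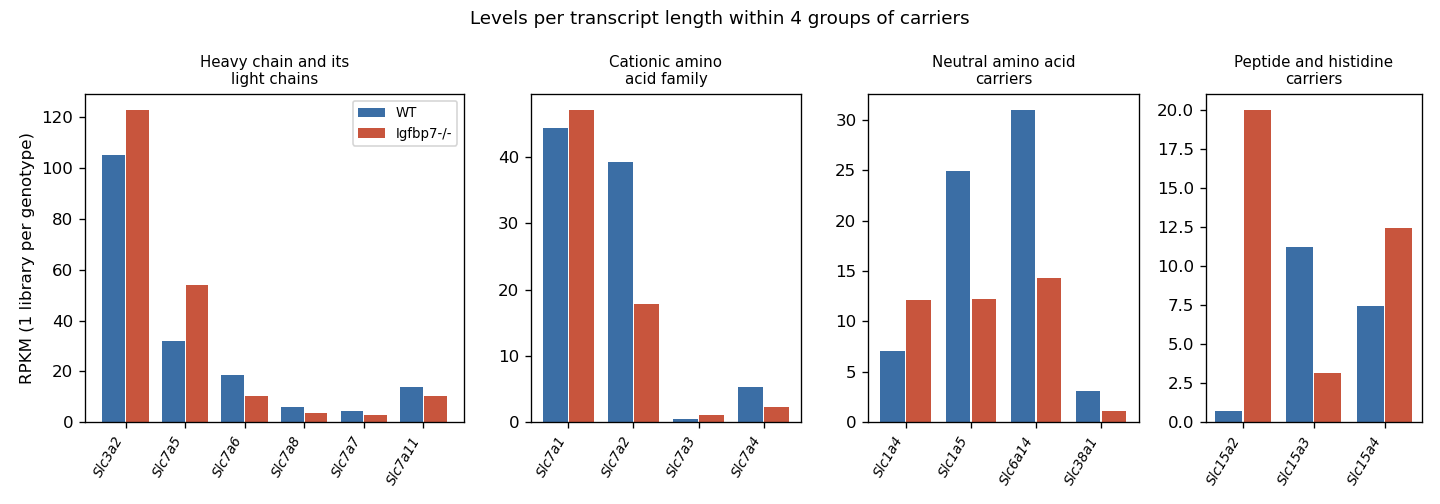
RPKM of 17 transporter genes in 4 groups, with 1 bar per library and no error bars because each genotype had 1 library; each panel has its own scale starting at 0. Slc15a3 stands above Slc15a2 in WT and below it in Igfbp7-/-, and Slc1a5 stands above Slc1a4 in WT and level with it in Igfbp7-/-.

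The acidic amino acid carriers were level or lower. *Slc1a1*, the epithelial glutamate and aspartate carrier EAAT3, had 24.2 RPM in WT and 29.2 RPM in *Igfbp7*-/- (log2 ratio 0.27, interval 0.08 to 0.46). *Slc1a3*, the carrier EAAT1 best known from glia, was lower, with 23.6 and 8.20 RPM (-1.51, -1.81 to -1.25). *Slc1a2*, the other main glial carrier, EAAT2, was lower from 267 to 48 reads, or 7.78 and 1.37 RPM (-2.42, -3.19 to -1.86). That was the lowest ratio among the 41 members. *Slc1a7* had 27 and 23 reads, and *Slc1a6* had 4 reads in WT and none in *Igfbp7*-/-, both below 1 RPM.

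Of the 18 Slc6 members, 8 had at least 1 RPM. Of these, 1 (12.5%) was higher and 3 (37.5%) were lower, against 21.4% and 23.0% of all genes. *Slc6a14*, which encodes the broad carrier ATB0,+ for neutral and cationic amino acids, was the most abundant in WT, with 106 RPM in WT and 49.1 RPM in *Igfbp7*-/- (log2 ratio -1.11, interval -1.23 to -0.998). *Slc6a8*, the creatine carrier, was lower, with 83.8 and 48.6 RPM (-0.78, -0.91 to -0.66), and came within 1.5 times when counts were scaled to protein-coding genes. *Slc6a6*, the taurine carrier, had 93.8 and 77.0 RPM (-0.29, -0.39 to -0.18). *Slc6a9*, which encodes the glycine carrier GlyT1, was the higher one, with 7.25 and 16.3 RPM (1.16, 0.86 to 1.49). Exons of *Slc6a9* overlap those of *Ccdc24* and *B4galt2* on the opposite strand, which had 22 and 20 reads and 68 and 63 reads. *Slc6a15*, a carrier of branched-chain amino acids and proline mostly of neurons, was lower on few reads, 66 and 28 (-1.17, -2.28 to -0.32). The other members above 1 RPM were *Slc6a4*, *Slc6a12* and *Slc6a17*, which had between 38 and 68 reads in each library. The kidney and gut carriers *Slc6a18* and *Slc6a19* had at most 2 reads in either library.

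*Slc38a2*, which encodes the sodium-coupled system A carrier SNAT2, was the most abundant member by RPM in both libraries. Per length it stood above *Slc3a2* in WT (111 against 105 RPKM) and below it in *Igfbp7*-/- (106 against 123 RPKM). It had 516 RPM in WT and 490.3 RPM in *Igfbp7*-/- (log2 ratio -0.07, interval -0.12 to -0.03), and made up 97.03% and 98.49% of the summed system A RPKM. *Slc38a1*, the related carrier SNAT1, was lower, with 24.0 and 8.82 RPM (-1.43, -1.72 to -1.17). *Slc38a4*, which encodes SNAT4, had 1.19 and 1.88 RPM (0.62, -0.15 to 1.57), and its ratio fell within 1.5 times once ratios were centred on the median of all genes. Of the system N carriers, which move glutamine and histidine, *Slc38a3* was lower on few reads, 112 and 50 (-1.14, -1.93 to -0.49), and *Slc38a5* had 4 and 2 reads. The less studied member *Slc38a10* was lower, with 69.5 and 44.0 RPM (-0.66, -0.79 to -0.53), but came within 1.5 times with counts scaled to listed genes. The lysosomal carrier gene *Slc38a7* stayed level, with 18.0 and 16.7 RPM (-0.11, -0.35 to 0.13). *Slc38a9*, a lysosomal arginine sensor that signals to mTORC1, had 4.37 and 5.17 RPM (0.24, -0.22 to 0.70). *Slc38a6* was higher on few reads, 34 and 70 (0.94, 0.14 to 1.94).

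The Slc43 family held 1 higher and 1 lower member (33.3% each) of 3 with at least 1 RPM. The Slc36 family held 1 higher member (33.3%) and 0 lower of 3, against 21.4% and 23.0% of all genes. *Slc36a1*, which encodes the lysosomal proton-coupled carrier PAT1 for small amino acids, had 9.53 RPM in WT and 16.1 RPM in *Igfbp7*-/- (log2 ratio 0.75, interval 0.48 to 1.05). *Slc36a4* had 4.28 and 4.54 RPM (0.08, -0.39 to 0.56). *Slc43a2*, which encodes the large neutral amino acid carrier LAT4, was higher, with 14.3 and 24.6 RPM (0.78, 0.55 to 1.015), while *Slc43a1*, which encodes LAT3, had 75 and 83 reads (0.11, -0.56 to 0.80). *Slc43a3*, which is now known as a carrier of purine nucleobases rather than amino acids, was the most abundant of the 3 and lower in *Igfbp7*-/-, with 204.8 and 114 RPM (-0.84, -0.92 to -0.76). *Slc43a3* is prominent in endothelial cells, and the summed endothelial markers stood at 1129 RPM in WT against 374.8 RPM in *Igfbp7*-/-, with 5 of 6 lower and no marker at 0. Their part in the lower *Slc43a3* was not tested.

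The summed levels of several marker lists were also lower in *Igfbp7*-/-. The summed level of basal and myoepithelial markers was 3085 RPM in WT against 976 RPM in *Igfbp7*-/-, that of fibroblast markers 7695 against 3831 RPM, and that of adipocyte markers 572 against 193.8 RPM, and no gene of these lists was at 0. *Col3a1* held most of the fibroblast sum (4670 RPM in WT, 1950 RPM in *Igfbp7*-/-), and 3 of 6 fibroblast genes were lower. *Pdgfra* (log2 ratio 0.45) and *Pdgfrb* (0.34) leaned upward within 1.5 times. *Fabp4* held most of the adipocyte sum (543.5 and 173.4 RPM). *Lep* was higher (8.04 and 16.8 RPM), while 4 of 5 adipocyte genes were lower. The fibroblast and adipocyte sums thus do not stand for their whole lists. The part of basal, myoepithelial, fibroblast and adipocyte cells in the lower members was not tested.

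Several members are neighbours in the genome. Positions in NCBIM37 were found for 63 of the 65 members, and 11 adjacent pairs lay within 1000 kb of each other. In 5 of these pairs both genes had at least 1 RPM, and in 1, *Slc7a7* and *Slc7a8* on chromosome 14 (308 kb apart), both passed 1.5 times in the same direction. Both of these came within 1.5 times when counts were scaled to listed genes. On chromosome 15, *Slc38a1*, *Slc38a2* and *Slc38a4* follow each other on the minus strand with no other protein-coding gene between them, at gaps of 44.5 and 295 kb. Of these neighbours, *Slc38a1* was lower and *Slc38a2* level. *Slc38a4* passed 1.5 times upward, but its interval included a ratio of 1 and it fell within 1.5 times once ratios were centred. Likewise *Slc36a2* and *Slc36a1* on chromosome 11 lay 19.3 kb apart, with log2 ratios of -0.29 and 0.75. *Slc43a1* and *Slc43a3* on chromosome 2 lay 73.0 kb apart, with 0.11 and -0.84.

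Other genes of amino acid handling were counted in 4 lists. The first held amino acid carriers or partner proteins that the rule did not select, mostly of other families but also *Slc6a20a* and *Slc6a20b*. Of its 12 genes with at least 1 RPM, 5 (41.7%) were higher and 4 (33.3%) lower, with a median log2 ratio of -0.02, against 21.4% and 23.0% of all genes. *Ctns*, the lysosomal cystine exporter, had 22.7 RPM in WT and 34.6 RPM in *Igfbp7*-/- (0.61, interval 0.42 to 0.80). *Slc25a22*, a mitochondrial glutamate carrier, had 22.7 and 10.9 RPM (-1.05, -1.32 to -0.81), and *Arl6ip5*, a membrane protein that binds *Slc1a1*, had 182 and 99.4 RPM (-0.87, -0.96 to -0.79). Of 28 genes of amino acid sensing by mTORC1, 22 were listed under these symbols and 21 had at least 1 RPM, and of those 4 (19.0%) were higher and 0 lower, with a median of 0.19. The share that was higher was near the 21.4% of all genes, and the share that was lower was below the 23.0% of all genes. Among those that reached 10 RPM, the highest ratio was that of *Flcn*, the folliculin gene, with 28.5 and 49.1 RPM (0.78), and the lowest that of *Sec13*, with 32.5 and 25.1 RPM (-0.37). *Rragc*, a Rag GTPase, had 111 and 132 RPM and *Seh1l* had 53.8 and 67.6 RPM, both within 1.5 times.

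Of 29 genes of amino acid metabolism, 3 (10.3%) were higher and 11 (37.9%) lower, against 21.4% and 23.0% of all genes, with a median log2 ratio of -0.34. The 3 higher ones, named after their values were seen, were all weakly expressed. They were *Arg1*, an arginase gene, with 47 reads in WT and 116 in *Igfbp7*-/-, *Phgdh*, which starts serine synthesis, with 92 and 171 reads, and *Prodh*, which breaks down proline, with 51 and 87 reads. *Odc1*, which makes polyamines from ornithine, had 534 RPM in WT and 203 RPM in *Igfbp7*-/- (-1.40, interval -1.45 to -1.34). *Cth*, which makes cysteine from cystathionine, had 16.1 and 5.77 RPM (-1.46, -1.82 to -1.14). *Glul*, the glutamine synthetase gene, stayed within 1.5 times at 339.6 and 419 RPM (0.30), as did the other arginase gene, *Arg2*, at 46.4 and 68.5 RPM (0.56). Of 17 peptidases and enzymes of the gamma-glutamyl cycle with at least 1 RPM, 4 (23.5%) were higher and 3 (17.6%) lower, with a median of 0.16, and both shares lay near those of all genes. Those include enzymes that release the small peptides and amino acids the carriers take up. *Anpep*, aminopeptidase N, had 31.5 and 69.2 RPM (1.13, 0.99 to 1.28), and *Lnpep*, cystinyl aminopeptidase, had 43.8 and 94.4 RPM (1.11, 0.98 to 1.24). *Dpep1*, a membrane dipeptidase, had 90.5 and 77.3 RPM (-0.23), and *Ggt1*, gamma-glutamyl transferase, had 16.5 and 7.28 RPM (-1.17, -1.50 to -0.88).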

How the data were processed

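Poly(A) RNA of the lineage-depleted MECs was sequenced on a SOLiD sequencer. The authors mapped the read pairs (Bowtie 0.12.3 and SAMtools 0.1.15 per the submitters' notes, which name mm9; the methods name a human build). They deposited a count of reads per gene without normalization, the RPM (count over all mapped reads) and the RPKM (RPM per kilobase). A larger share of reads outside listed genes lowers every RPM of a library. The handling of reads mapping to several places or to overlapping genes was not given in the sources used here. Rows that name no gene, 50 per file, were not used.

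Python 3.11.15, numpy 2.4.6, scipy 1.17.1 and pandas 2.3.3 were used. The pseudocount was 0.1 RPM, the minimum 1 RPM in either library and the ratio threshold 1.5. Low counts were mostly even (75.8% and 74.1% of genes with 1 to 20 reads), so intervals were computed on counts divided by 2. TMM factors came from edgeR 4.0.16, and no model was fitted. Named members had at least 10 RPM in the higher library, or passed 1.5 times with an interval that left out 1. Further members are named where a family is described and were chosen after their values were seen. The members and lists were chosen with earlier results of these data known. Scripts were tested on simulated counts. Alternatives were 2 other pseudocounts, 3 other minimums, 5 other scalings or centrings, a threshold of 2 and the interval as a criterion. Scaling to protein-coding genes was added after the data had been seen.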

Additional observations from a re-analysis of the deposited data

How the results depend on the processing

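The numbers of higher and lower members ranged from 7 to 15 and from 12 to 18 over the alternatives that kept a threshold of 1.5. With a threshold of 2, 3 members (7.32%) were higher and 10 (24.4%) lower, against 1352 (9.64%) and 1936 (13.8%) of all genes. Without a minimum 4741 (23.5%) of all genes were higher and 5279 (26.2%) lower, and with a minimum of 10 RPM 1696 (20.7%) and 1672 (20.4%). The log2 ratio of the summed levels was 0.013 with counts scaled to listed genes, 0.036 with counts scaled to protein-coding genes, -0.20 with TMM and -0.12 without the 20 most abundant genes, so its sign depended on the scaling. Over the 6 scalings and centrings, 9 of the 10 higher and 12 of the 16 lower members stayed past 1.5 times, and *Slc38a4*, *Slc38a10*, *Slc6a8*, *Slc7a7* and *Slc7a8* did not in at least one. No ratio of a named member past 1.5 times changed sign. No paired analysis was possible because each genotype had 1 library, and no replicate could be left out. Depth limits the members with few reads, and 12 of the 24 below 1 RPM had at most 3 reads in both libraries. In 7 members exons overlap another protein-coding gene on the opposite strand. The methods describe a library preparation that keeps the strand, but whether counting used it was not stated.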
